A study of Mus musculus with 6 samples.

Results

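The genes described here encode proteins of the intercalated disc, the junction that joins heart muscle cells end to end, and the Xin proteins that bind actin there. The 10 genes, chosen by symbol, were Xirp1, Xirp2, Nrap, Cdh2, Dsp, Dsg2, Pkp2, Jup, Gja1 and Gja5, of 20893 genes in the table. Each was found once. Heart RNA of C57BL6/J mice was sequenced from 3 libraries of mice with a germline Rbpms knockout and from 3 of wildtype mice, and no treatment or age in days is given for either group. The series' title speaks of embryonic hearts and its design text of littermate controls at the neonatal stage, so the stage is uncertain by the labels. The comparison asks how transcript levels differ in hearts with a knockout of Rbpms, a gene for an RNA-binding protein with an RNA recognition motif.

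At the intercalated disc, adherens junctions fasten the last actin filaments of the myofibrils to the cell membrane, desmosomes fasten desmin filaments, and gap junctions let current pass to the next cell. Cadherins span the gap between cells, and catenins, plakoglobin and plakophilins tie their tails to the cytoskeleton. Xin proteins bind actin through short repeats and, with Nrap, sit where myofibrils end at the disc. Human mutations in desmosomal genes are known for arrhythmogenic cardiomyopathy.

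Rbpms held 375, 340 and 507 in knockout libraries and 1182, 1176 and 1317 in wildtype libraries (log2 fold change -1.61, limma, adjusted p = 0.0124). Each value is a number of reads that the authors scaled by library and rounded, and 4163174 to 5805104 reads were recovered per library. A gene was tested where its value reached 10 in at least 3 libraries, which 14974 genes did, all 10 disc and Xin genes among them. In the test over all of these, 141 genes changed (limma on log2 of the value plus 1, Benjamini-Hochberg adjusted p under 0.05), which is 0.942%, 76 of them higher (0.508%) and 65 lower (0.434%) in knockout hearts. Of the called genes 53.9% were higher, against 40% with upper quartile scaling, 42% with equal totals and 39.7% with voom. Without knockout replicates 1, 2 and 3 the count was 6, 510 and 727. Leaving out wildtype replicate 1 left 3 changed genes. Leaving out replicate 2 or 3 of the wildtype left 0, with 2176 and 1852 genes under 0.05 by limma before adjustment and no other tool run on those subsets. Nothing in the labels says that each library came from its own animal, so each p-value reflects spread between libraries, which may be technical. Knockout replicate 3 stood apart from the rest. Summed over 5 erythroid markers it held 1881, against 604 and 685 in the other knockout libraries and 552 to 711 in wildtype libraries, and over 9 markers of epicardium and mesothelium it held 1121, against 1694 and 1918 in the other knockout libraries and 1657 to 1799 in wildtype libraries. It and wildtype replicate 1 were read as female from Xist and Y-linked genes, which leaves 2 male libraries in each group. The tissue label fitted the defining genes of heart muscle, since 8 cardiomyocyte markers summed to 22586 to 25154 in knockout and 23911 to 26314 in wildtype libraries.

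Among the 10 genes, Xirp2 rose in knockout hearts and the other 9 did not pass the test, a share of called genes to be read against the 0.942% over all tested genes. The groups did not overlap in 2 of the 10, Xirp2 and Nrap, which is 20% where 22% of all tested genes had groups that did not overlap, 11% higher and 10.9% lower in knockout hearts. The median log2 fold change of the 10 was -0.03, against -0.00 over all tested genes, with 4 of the 10 above 0 where 49.8% of all tested genes were. Their median absolute log2 fold change was 0.10, against 0.13 over all tested genes. Without knockout replicate 3 the count of changed genes was 2 of the 10, Xirp2 and Nrap, where 727 of all tested genes or 4.86% changed. Leaving out knockout replicate 1 or wildtype replicate 1, 2 or 3 left 0, where 6, 3, 0 and 0 of all 14974 tested genes changed. In these fits 2 to 4 of the 10 were under 0.05 by limma before adjustment, where 1477 to 2176 of all tested genes were.

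The windows around the annotated start of Xirp2 and Nrap, the pair whose groups did not overlap, are shown because both genes stood higher in every knockout library. RefSeq sequences of the build GRCm38.p6, 250 bases before and 50 bases from the start on, were at hand for 6 of the 10 genes. The Xirp2 window is chr2:67445752-67446051 on the forward strand, and the Nrap window is chr19:56389989-56390288 on the reverse strand. These RefSeq starts were not matched to the mm39 bounds of the genes as counted. Either window may therefore lie away from the start of the counted gene. Capitals mark matches, on either strand, to any of 6 motifs of transcription factors. The motif of GATA factors was searched as AGATAA and that of TEAD proteins as GGAATG, the AP-1 motif as TGANTCA and the NKX2-5 motif as AAGTG. The MEF2 motif was searched as CTA and TAG around 4 bases of any kind, and the SRF motif as the CArG box by name.
Xirp2: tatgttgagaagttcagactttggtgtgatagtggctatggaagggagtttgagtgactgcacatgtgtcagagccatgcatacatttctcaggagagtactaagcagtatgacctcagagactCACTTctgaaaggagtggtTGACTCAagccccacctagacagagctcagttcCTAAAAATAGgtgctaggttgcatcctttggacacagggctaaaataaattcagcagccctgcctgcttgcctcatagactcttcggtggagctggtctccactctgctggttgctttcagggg
Nrap: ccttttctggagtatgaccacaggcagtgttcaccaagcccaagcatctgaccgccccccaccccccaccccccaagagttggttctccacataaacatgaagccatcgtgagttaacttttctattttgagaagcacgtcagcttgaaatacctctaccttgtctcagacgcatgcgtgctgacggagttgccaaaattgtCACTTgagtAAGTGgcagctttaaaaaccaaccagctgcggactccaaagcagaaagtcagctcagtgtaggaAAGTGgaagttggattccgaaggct
The Xirp2 window held a MEF2 match, CTAAAAATAG, with its first base at -74 from the start, an AP-1 match at -107 and an NKX2-5 match at -126. No motif's match overlapped another's in it. MEF2 letters were found in 3.69% of 32851 promoter windows, AP-1 letters in 7.81% and NKX2-5 letters in 46.4%. The Nrap window held 3 NKX2-5 matches and none of the other 5 motifs. Of the other 4 windows, that of Gja1 held a GATA match (11.2% of all windows) and an AP-1 match, and that of Gja5 an NKX2-5 match, while the windows of Jup and Dsp held none of the 6. TEAD and CArG letters, found in 14.7% and 1.63% of all windows, were in none of the 6 windows. A match is a string of letters and was not tested for binding.

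Xirp2, the larger of the Xin genes, lies at chr2:67004178-67356959 on the forward strand of mm39. It held 467, 372 and 615 in knockout libraries and 118, 172 and 162 in wildtype libraries. Every knockout library lay above every wildtype library, and the highest was knockout replicate 3. The means were 485 ± 122 in knockout and 151 ± 28.7 in wildtype hearts (SD, n = 3 each), a ratio of 3.22. The log2 fold change was 1.67 (standard error 0.21), with a 95% interval of 1.18 to 2.15 (limma, adjusted p = 0.0239). A fitted rise at least this large was seen in 24 of the 14974 tested genes, or 0.16%. In male libraries only, where knockout replicate 3 and wildtype replicate 1 are left out, the log2 fold change was 1.32 (limma, adjusted p = 0.00032). That fit had 2 libraries per group and was added after the data were seen. It called 256 of all tested genes, against 141 in the main fit. By limma, the adjusted p was 0.102 without knockout replicate 1 and 0.122, 0.0974 and 0.143 without wildtype replicates 1, 2 and 3. In that order, those fits called 6, 3, 0 and 0 of the 14974 tested genes. The log2 fold change stayed between 1.48 and 1.84 whichever library was left out. By limma, the adjusted p was 0.00216 without knockout replicate 3 and 0.00467 without knockout replicate 2, where 727 and 510 genes were called. By voom on recovered reads it was 0.0527. A long noncoding gene on the opposite strand within Xirp2, Gm13601, held at most 4 in any library.

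Xirp2 is also made in skeletal muscle, so skeletal muscle markers were set beside it. Of 11 such markers 10 were in the table, 4 of these stayed under 10 in every library, and their sum ran from 108 to 150 in knockout and from 108 to 216 in wildtype libraries. Of the 10, 3 were at 0 in at least 1 library. In each group the library with the highest sum, knockout replicate 3 and wildtype replicate 2, also had that group's highest Xirp2 value. Between the groups the skeletal muscle sums overlapped and Xirp2 did not, and their part in the Xirp2 value was not tested. In bulk tissue, fewer cells of a type and less RNA per cell cannot be told apart.

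**Figure D1:**
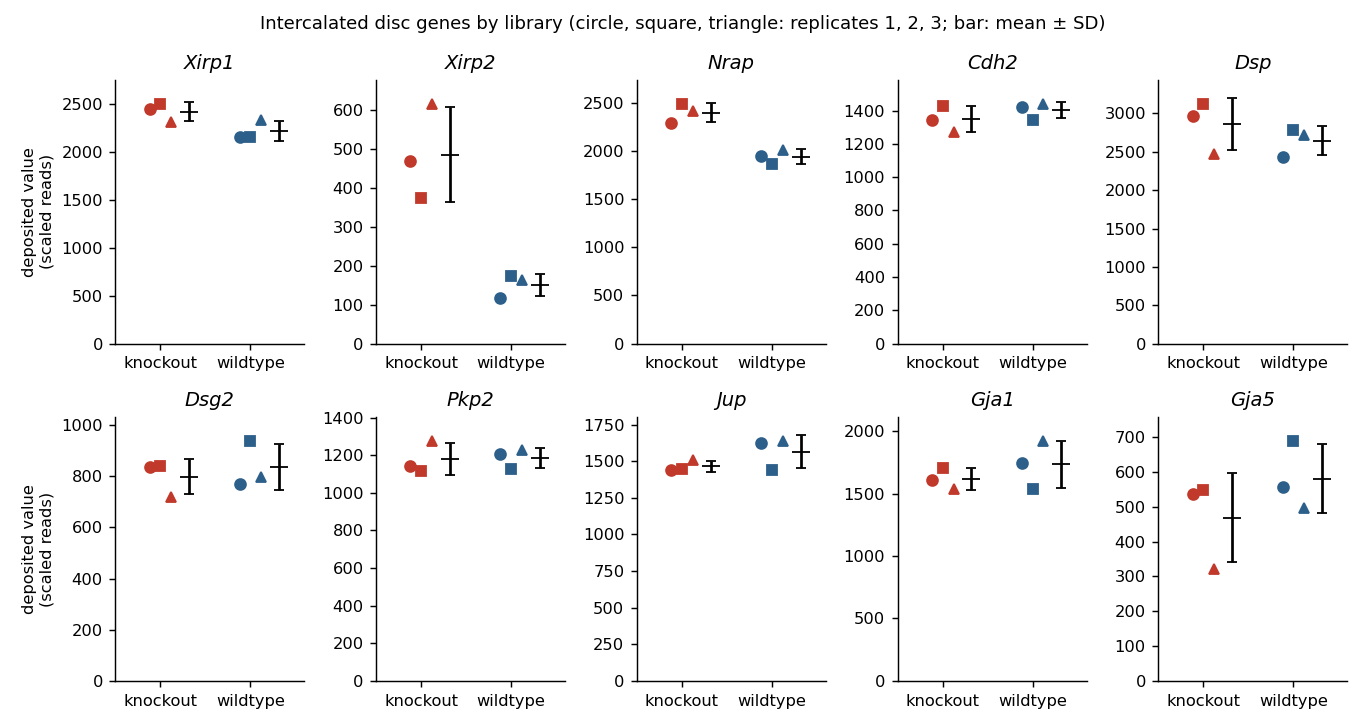
Deposited value (scaled reads, axis from 0) of each of the 10 genes in the 3 knockout libraries, left, and the 3 wildtype libraries, right, with the mean and SD beside the points. Xirp2 (372 to 615 against 118 to 172) and Nrap (2289 to 2489 against 1862 to 2013) are the genes whose groups do not overlap.

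Xirp1, the other Xin gene, binds actin through the same kind of repeat and, in mouse, is known to bind beta-catenin. It lies at chr9:119842821-119852664 on the reverse strand of mm39. Its values were 2453, 2507 and 2314 in knockout libraries and 2164, 2164 and 2341 in wildtype libraries. The groups overlapped, because wildtype replicate 3 lay above knockout replicate 3. Its log2 fold change was 0.13 (standard error 0.06), with a 95% interval of -0.02 to 0.27 (limma, adjusted p = 0.361). Cx3cr1, a gene annotated across it on the same strand, held at most 95. Per kb of exon, the Xirp2 value was 9.28%, 7.23% and 13% of the Xirp1 value in knockout libraries and 2.66%, 3.87% and 3.37% in wildtype libraries. This ratio within a library, which no scaling of libraries changes, did not overlap between the groups. Its size would depend on whether duplicate reads were removed, which is not stated.

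Nrap, a nebulin-related anchoring protein of early myofibrils and of the disc, lies at chr19:56308467-56378469 on the reverse strand of mm39. Its values were 2289, 2489 and 2412 in knockout libraries and 1947, 1862 and 2013 in wildtype libraries. Every knockout library lay above every wildtype library, by less than for Xirp2 in relative terms. The means were 2397 ± 101 in knockout and 1941 ± 75.7 in wildtype hearts (SD, n = 3 each), a ratio of 1.24. The log2 fold change was 0.30 (standard error 0.06), with a 95% interval of 0.16 to 0.44, and it did not pass over all genes (limma, adjusted p = 0.0601). It passed without a filter on low values (0.0433) and without knockout replicate 3 (0.0234), within 0.0234 to 0.306 over 20 alternatives. Habp2, which overlaps an end of Nrap on the opposite strand, held 43, 54 and 52 in knockout and 33, 23 and 38 in wildtype libraries. Gm17197, a long noncoding gene on the opposite strand within Nrap, held 19, 25 and 16 in knockout and 4, 15 and 7 in wildtype libraries. Whether counting used strand is not stated in the sources at hand, so reads of Nrap and of these neighbours may not be fully separated.

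**Figure D2:**
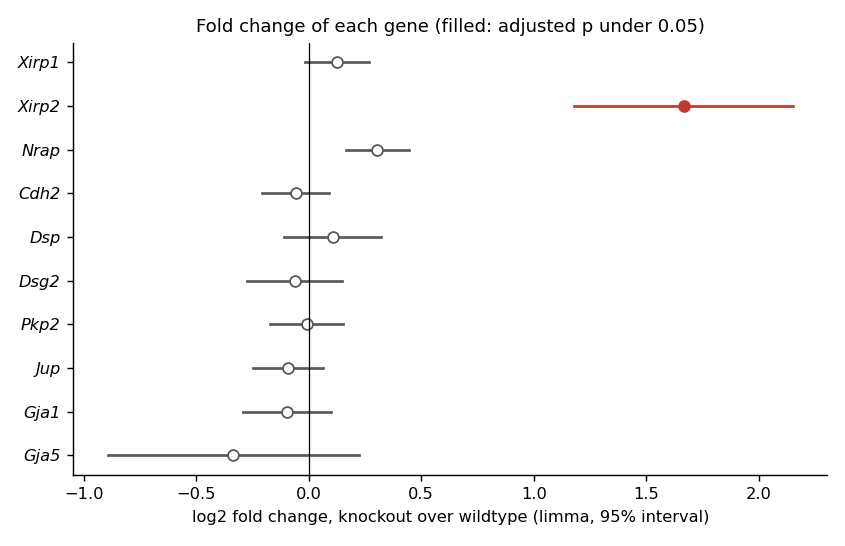
Log2 fold change of knockout over wildtype for each of the 10 genes, with its 95% interval from limma. The filled point, Xirp2 at 1.67, is the gene with an adjusted p under 0.05, and the intervals of Xirp2 and Nrap lie above 0.

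Cdh2 encodes N-cadherin, the adhesion molecule of the disc's adherens junctions. It held 1344, 1427 and 1273 in knockout libraries and 1421, 1346 and 1441 in wildtype libraries. The groups overlapped. N-cadherin transcript had a log2 fold change of -0.06 with a 95% interval of -0.21 to 0.09 (limma, adjusted p = 0.708). A fold outside 0.867 to 1.06 thus lies beyond that interval.

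The desmosome was represented by a cadherin, a plakin and 2 proteins of its plaque. Dsg2, desmoglein, the desmosomal cadherin, held 837, 838 and 719 in knockout libraries and 770, 937 and 796 in wildtype libraries. Its groups overlapped, with a fold of 0.958 and a 95% interval of 0.827 to 1.11 (limma, adjusted p = 0.789). Dsp, desmoplakin, which links the plaque to desmin, held 2969, 3127 and 2476 in knockout libraries and 2432, 2784 and 2724 in wildtype libraries. Knockout replicates 1 and 2 lay above all wildtype libraries and knockout replicate 3 below 2 of them, so the groups overlapped. The fold for Dsp was 1.08, with an interval of 0.928 to 1.25 (limma, adjusted p = 0.625). Pkp2, plakophilin, an armadillo protein of the plaque, held 1140, 1118 and 1275 in knockout libraries and 1204, 1124 and 1226 in wildtype libraries. Its fold was 0.993 with an interval of 0.888 to 1.11 (limma, adjusted p = 0.961). Jup, plakoglobin, which binds both desmosomal cadherins and N-cadherin, held 1441, 1450 and 1510 in knockout libraries and 1622, 1440 and 1638 in wildtype libraries. Its fold was 0.938 with an interval of 0.843 to 1.04 (limma, adjusted p = 0.541). Wildtype replicate 2 lay below all knockout libraries for Jup, so these groups overlapped too, as they did for Pkp2. Among knockout libraries, replicate 3 was the lowest for Dsp, Dsg2 and Cdh2 and the highest for Pkp2 and Jup.

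Gap junction genes stood lower on average in knockout hearts and did not pass the test. Gja1, the main connexin of working ventricular muscle, held 1605, 1708 and 1533 in knockout libraries and 1741, 1539 and 1920 in wildtype libraries. Its groups overlapped, with a fold of 0.935 and a 95% interval of 0.816 to 1.07 (limma, adjusted p = 0.622). Gja5, a connexin of the atria, the fast conduction system and arterial endothelium, held 536, 548 and 321 in knockout libraries and 557, 689 and 496 in wildtype libraries. Knockout replicate 3 was the lowest of all, and the other 2 knockout libraries fell among the wildtype values. The log2 fold change of Gja5 was -0.34 with an interval of -0.90 to 0.22 (limma, adjusted p = 0.524), and -0.09 without knockout replicate 3. Of the 10 genes it had the highest coefficient of variation in knockout libraries, 27.3%, against 17% in wildtype libraries. Per kb of exon, Gja5 came to 59.6%, 57.3% and 37.4% of Gja1 in knockout libraries and to 57.1%, 79.9% and 46.1% in wildtype libraries, so the ratio overlapped as well. Markers of the tissues that carry Gja5 were set beside it. Knockout replicate 3 held 2096 summed over 5 atrial markers, against 1964 and 2123 in the other knockout libraries and 1960 to 2699 in wildtype libraries. Over 7 conduction markers it held 1572, against 1835 and 2418 in the other knockout libraries and 2053 to 2287 in wildtype libraries. Over 6 markers of arterial endothelium it held 1542, against 1714 and 1594 in the other knockout libraries and 1463 to 1520 in wildtype libraries. The part of these cell types in the Gja5 value was not tested. Gpr89, which overlaps an end of Gja5 on the opposite strand, held 177 to 199 in knockout and 179 to 190 in wildtype libraries.

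Levels of different genes were compared per kb of exon. In knockout hearts Nrap averaged 435 ± 18.3 and Xirp1 415 ± 17.1 per kb, and these overlapped, while in wildtype hearts they averaged 352 ± 13.7 and 381 ± 17.5 per kb without overlap (SD, n = 3 each). Nrap thus stood first by mean in knockout hearts and Xirp1 first in wildtype hearts. Per kb, Nrap was 98.9%, 105% and 111% of Xirp1 in knockout libraries and 95.4%, 91.2% and 91.2% in wildtype libraries. Next came Dsp, Jup, Pkp2, Cdh2 and Gja1, in that order in both groups, from 296 ± 35.2 to 157 ± 8.58 per kb in knockout and from 274 ± 19.5 to 169 ± 18.6 per kb in wildtype hearts. Neighbours in this order overlapped between libraries for Jup and Pkp2 and for Cdh2 and Gja1 in both groups, and for Dsp and Jup in wildtype hearts. Dsg2 at 96.5 ± 8.28 and Gja5 at 81.5 ± 22.2 per kb overlapped in knockout hearts, as they did in wildtype hearts at 101 ± 10.9 and 101 ± 17.2 per kb. Xirp2 was lowest in both, at 40.5 ± 10.2 per kb in knockout and 12.6 ± 2.4 per kb in wildtype hearts, below every other gene of the 10 in every library. Recovered reads per base of exon ran from 0.0279 for Xirp2 to 0.402 for Xirp1 as means over 6 libraries. The highest gene of the table reached 0.925, and 77 tested genes lay over 0.5. Whether duplicate reads were removed is not stated. Removal would lower abundant genes more than scarce ones, so differences in level between genes may be compressed, which was not tested.

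**Figure D3:**
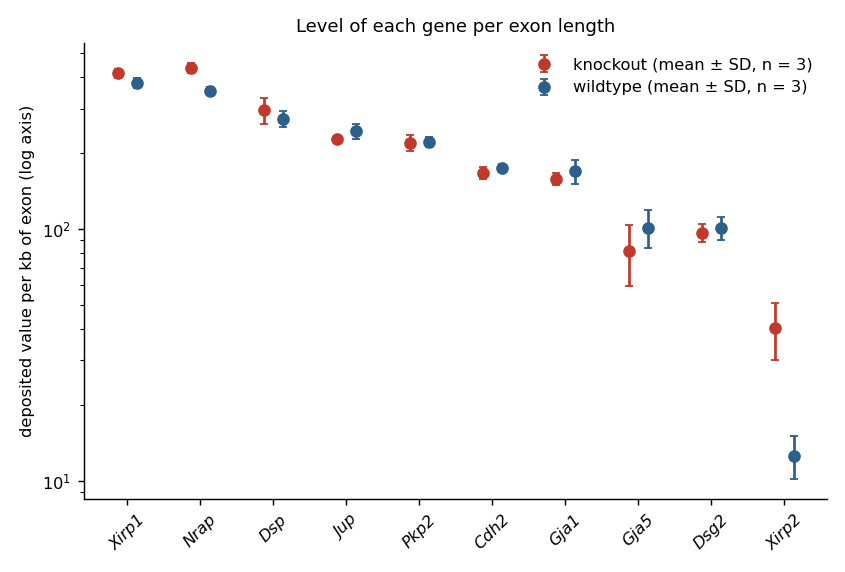
Mean deposited value per kb of exon on a log axis, with SD over 3 libraries, for knockout (left of each pair) and wildtype hearts. Xirp2 is the lowest gene in both groups, at 40.5 in knockout and 12.6 in wildtype hearts. Nrap is higher in knockout hearts without overlap, at 435 against 352, and the groups of the other 8 genes overlap.

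Profiles over the 6 libraries were compared with that of Xirp2 by the mean absolute difference of log2 values from the wildtype mean, among 11709 other genes with a mean value of at least 50. Nearest was Eya2, a transcriptional coactivator and phosphatase of the eyes absent family, at 0.22. It held 84, 55 and 125 in knockout and 15, 35 and 24 in wildtype libraries, and did not pass (log2 1.79, limma, adjusted p = 0.0648). Like Xirp2 it was highest in knockout replicate 3 and lowest in wildtype replicate 1. Next were Eppk1, the plakin-related cytolinker epiplakin (distance 0.29, log2 1.21, limma adjusted p = 0.057), and Cdkn1a, the p21 inhibitor of cyclin-dependent kinases (distance 0.30, log2 1.20, limma adjusted p = 0.0124). Mybpc2, a myosin-binding protein C of fast skeletal muscle (distance 0.30, log2 1.39, limma adjusted p = 0.0124), and the unclassified transcript Gm37795 (distance 0.31, log2 1.13, limma adjusted p = 0.0669) followed. Cdkn1a held 677, 571 and 807 in knockout and 270, 322 and 293 in wildtype libraries, and Mybpc2 held 197, 267 and 287 in knockout and 92, 101 and 88 in wildtype libraries. Groups did not overlap for any of the 5 genes, which a choice by likeness to Xirp2 favours. These 5 genes were taken for their likeness over 6 libraries that fall into 2 groups, so a gene that rises in knockout hearts by a similar amount will be near.

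**Figure D4:**
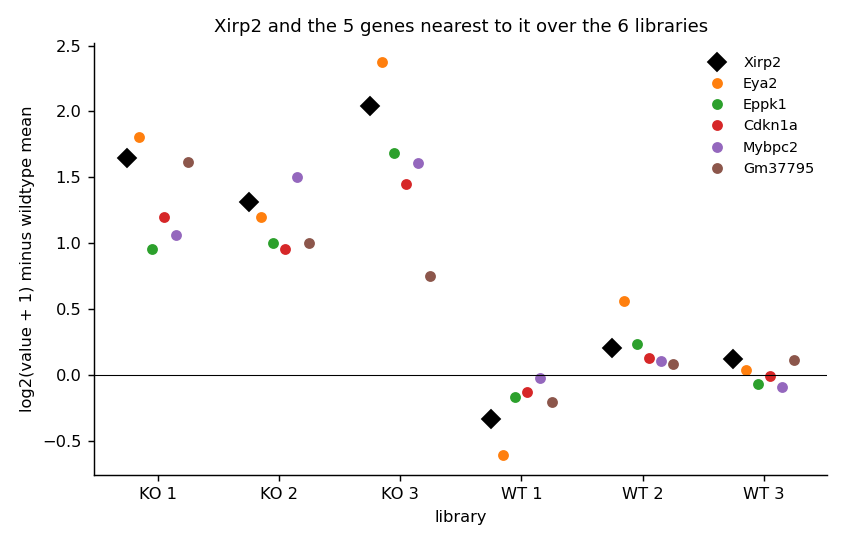
Log2(value + 1) minus the wildtype mean in each knockout (KO) and wildtype (WT) library for Xirp2 (diamonds) and the 5 genes with the smallest mean absolute difference from it, 0.22 to 0.31. All 6 genes lie above 0 in each knockout library, and Eya2 follows Xirp2 most closely.

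Among 88 other listed genes of the disc and of the thin filament ends, 73 were in the table and 67 were tested. Of these 0 rose and 1 fell, Klhl41, which is 1 of 67 where 0.942% of all tested genes changed. Klhl41 encodes a kelch protein of muscle that is known to bind nebulin and Nrap. It held 536, 586 and 505 in knockout libraries and 685, 708 and 724 in wildtype libraries, so every knockout library lay below every wildtype library. Its log2 fold change was -0.38 (limma, adjusted p = 0.0499), just inside the threshold. It was called under 7 of 20 alternatives, with an adjusted p of 0.0166 to 0.231 over all of them. Its call was lost with a pseudocount of 0.5 (0.0501), with median centring (0.0591), where Arvcf was the 1 gene called, and in male libraries only (0.0654), where it was Itga7. At an unadjusted p under 0.05 by limma, 10 of the 67 were higher and 3 lower, a share to be read against 16.4% over all tested genes. Unadjusted counts of each list below are to be read against the same 16.4%. Of the 67, 0 changed by voom on recovered reads, with 14 under 0.05 before adjustment. The groups did not overlap in 16 of the 67, 23.9% where all tested genes gave 22%. Without knockout replicate 3, 8 of the 67 changed, 7 higher and Klhl41 lower, where 4.86% of all tested genes changed. The 7 were Arvcf, Dsc2, Itga7, Popdc3, Synm, Tln1 and Vcl. Without knockout replicate 2 the count was 2, Arvcf higher and Klhl41 lower, where 3.41% of all tested genes changed. Leaving out knockout replicate 1 or wildtype replicate 1, 2 or 3 left 0, where 6, 3, 0 and 0 of all 14974 tested genes changed. In these fits 8 to 12 of the 67 were under 0.05 by limma before adjustment, where 1477 to 2176 of all tested genes were.

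Partners of the adherens junction and of the mixed junction of mammalian hearts, the area composita, had 0 of 16 genes changed by limma and by voom, 3 under 0.05 by limma before adjustment, and a median log2 fold change of 0.03. Arvcf, a catenin related to p120, had the smallest p, at 887, 770 and 926 in knockout and 647, 689 and 599 in wildtype libraries (log2 0.41, limma, adjusted p = 0.0615). It passed under 4 of 20 alternatives, namely median centring (0.0499), no filter on low values (0.043) and leaving out knockout replicate 2 (0.0165) or 3 (0.0226), and its adjusted p reached 0.292 over the 20. Talin (Tln1), which couples integrins to actin, held 2354, 2441 and 2253 in knockout and 1846, 1986 and 1953 in wildtype libraries (log2 0.28, limma, adjusted p = 0.0674). Vinculin (Vcl), a talin and alpha-catenin partner, held 1693, 1604 and 1632 in knockout and 1207, 1451 and 1367 in wildtype libraries (log2 0.30, limma, adjusted p = 0.107). The groups of these 3 genes did not overlap. Over the whole list this held for 4 of 16 genes (25%), against 22% of all tested genes. Talin and vinculin were named after their values were seen.

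Desmosomal proteins and the filaments they anchor had 0 of 7 tested genes changed by limma and by voom, 2 of them at an unadjusted p under 0.05 by limma. Synm, an intermediate filament protein that pairs with desmin, had the smallest p, with 89, 86 and 182 in knockout and 42, 64 and 47 in wildtype libraries (log2 1.14, limma, adjusted p = 0.121). Desmocollin (Dsc2), the other desmosomal cadherin of heart, was named after its values were seen. It held 638, 592 and 492 in knockout and 443, 515 and 431 in wildtype libraries (log2 0.31, limma, adjusted p = 0.206). Its groups overlapped, and its partner Dsg2 had a fitted fold on the other side of 1.

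Other connexins and pannexins had 0 of 7 tested genes changed by limma and by voom, with 1 at an unadjusted p under 0.05 by limma. That was Panx2, a channel protein related to innexins, at 42, 67 and 31 in knockout and 90, 91 and 51 in wildtype libraries (log2 -0.74, limma, adjusted p = 0.302). Gja3, a connexin named after its values were seen, held 255, 285 and 127 in knockout and 324, 327 and 319 in wildtype libraries (log2 -0.62, limma, adjusted p = 0.353). Knockout replicate 3 was the lowest library for Gja3 as for Gja5.

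Nebulin and Xin partners at the thin filament ends, 17 genes tested, held the 1 fall, Klhl41, and a median log2 fold change of 0.02. Myot (myotilin), an actin-binding protein of the Z disc named after its values were seen, held 37, 29 and 66 in knockout and 16, 23 and 19 in wildtype libraries (log2 1.08, limma, adjusted p = 0.146). Disc membrane and scaffold proteins had 0 of 20 changed by limma and by voom, with a median of 0.04. At an unadjusted p under 0.05 by limma there were 4, 3 higher and 1 lower, where 16.4% of all tested genes passed. Popdc3, a Popeye domain protein that binds cyclic AMP, had the smallest p there, at 489, 449 and 405 in knockout and 346, 366 and 375 in wildtype libraries (log2 0.30, limma, adjusted p = 0.131). The groups did not overlap, with all 3 knockout libraries above the wildtype libraries.

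**Figure D5:**
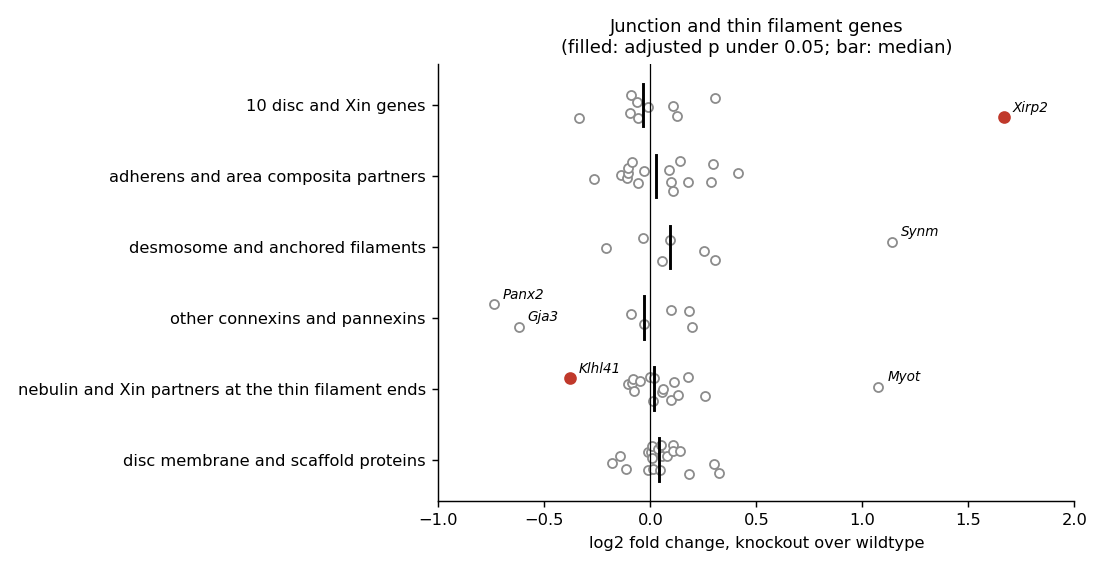
Log2 fold change of knockout over wildtype for the 10 genes and for 5 lists of other junction and thin filament genes, 1 point per tested gene, with a bar at each list's median. Xirp2 (1.67) and Klhl41 (-0.38) are filled because their adjusted p was under 0.05, and medians lie between -0.03 and 0.09.

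Levels of the listed cell type markers bear on genes of the disc that other cells share. Desmosomal and adherens genes are also made in mesothelium and epicardium, whose 9 markers summed to 1121 to 1918 in knockout and 1657 to 1799 in wildtype libraries, with the lowest sum in knockout replicate 3. Of these 9 markers 1 changed, Krt8, an epithelial keratin, named after its values were seen, where 0.942% of all tested genes changed. The other markers of the list were not called, and the summed list averaged 1578 in knockout and 1715 in wildtype libraries. Krt8 held 93, 90 and 78 in knockout and 35, 31 and 32 in wildtype libraries (log2 1.38, limma, adjusted p = 0.0202), so every knockout library lay above every wildtype library. Smooth muscle markers summed to 1318 to 1715 in knockout and 1823 to 2095 in wildtype libraries, without overlap. Endothelial markers summed to 7462 to 8071 in knockout and 7104 to 7274 in wildtype libraries, also without overlap, while fibroblast markers overlapped at 9383 to 11271 in knockout and 9881 to 11518 in wildtype libraries, and leukocyte markers at 732 to 865 in knockout and 773 to 831 in wildtype libraries. Markers of airway and lung epithelium summed to 5 to 9 in knockout and 3 to 6 in wildtype libraries, over 3 genes of the table. The part of these cell types in the values of the 10 genes was not tested.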

How the data were processed

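Per the labels' protocols, a stranded mRNA kit was used on heart RNA and reads were single-end. The submitters' processing notes name Trimmomatic 0.39, STAR 2.7.11a, Picard 3.0.0, featureCounts 2.0.4, DESeq2 1.36.0 and the build mm39, with no role or order. The deposited values were handled as a score, that is, read numbers that the authors multiplied by a factor per library and rounded, as read from missing or doubled whole numbers among the low values. The factors, estimated from values under 400, were 0.9371, 1.0384 and 0.8524 in knockout and 1.0422, 0.9568 and 1.1798 in wildtype replicates 1, 2 and 3, and division by them gave the recovered reads.

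The values were not raw counts, so limma 3.58.1 (statmod 1.5.0, R 4.3.3) was run on log2(value + 1) with trend and robust moderation, 6 libraries and no covariate, and p-values were adjusted over the 14974 genes that reached 10 in 3 or more libraries. Fold changes on this scale understate those of low genes. If duplicate reads were removed, which is not stated, those of abundant genes may be understated too. The test was tried on simulated data. The 10 genes, the lists and the tests were chosen with earlier results of these data known. By rule, the genes named besides the 10 were Rbpms, in each other list the changed genes or the gene with the smallest p, and the 5 genes most like Xirp2. Outside the rule, Tln1, Vcl, Dsc2, Gja3, Myot, Itga7 and Krt8 were named after their values were seen, and genes that overlap the 10 were named for their position. Exon lengths came from GENCODE M21 (GRCm38), matched by identifier for 98.2% of tested genes, with no coordinates used. RefSeq promoter windows (GRCm38.p6) were searched on both strands. Alternatives covered pseudocount, filter, moderation, scaling, voom, sex, a replicate block and leaving out each library. Male libraries only was added after the data were seen.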

Additional observations from a re-analysis of the deposited data

How the results depend on the processing

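Across 20 alternatives, 6 of the 10 genes kept their direction and their side of the threshold under all of them, namely Xirp1, Cdh2, Dsp, Jup, Gja1 and Gja5. Xirp2 was above 0 in all 20 (log2 1.32 to 1.84), and its adjusted p ran from 0.00032 to 0.143. Its call was lost with neither trend nor robust moderation (0.078), by voom on recovered reads (0.0527) and without knockout replicate 1 or any wildtype replicate. Leaving out a library put Dsg2 between -0.118 and 0.0239 and Pkp2 between -0.0684 and 0.0263 on the log2 scale, so both turned direction without passing the threshold. The count of changed genes among the 10, 1 by the main settings, was 2 with no filter on low values and 0 with neither trend nor robust moderation or by voom on recovered reads (in both, 2 were under 0.05 before adjustment). It ran from 0 to 2 when a library was left out. Among the other disc genes the count, 1 by the main settings, was 2 with no filter on low values, and 0 with a pseudocount of 0.5, the stricter filter, trend without robust moderation, neither of these, voom on deposited values or on recovered reads, and the replicate block, where limma gave 10 to 14 at an unadjusted p under 0.05. It ran from 0 to 8 when a library was left out.

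Over all genes the count of 141 became 218 with no filter on low values, 78 with a mean of at least 50, 90 without robust moderation, 24 with neither trend nor robust moderation, 73 by voom on deposited values and 73 by voom on recovered reads, 256 in male libraries only and 223 with sex as a term. It ran from 0 to 727 when a library was left out. The cause was not tested. With the replicate number as a block it was 23, and the Xirp2 call was kept (adjusted p = 0.0432). Libraries with the same number did not deviate together (correlations of -0.169, -0.111 and -0.13). Paired libraries need not share a deviation over all genes, so this cannot show whether the numbers pair the samples. Xirp2 rested on 0.0279 recovered reads per base of exon, the fewest of the 10, while Gja5, with 0.0914, had a larger standard error on the log2 scale (0.232, against 0.208 for Xirp2).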
